A study of Mus musculus with 19 samples.

Results

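Gpihbp1 and 8 genes that work with it in the breakdown of circulating fat were followed in the lungs of mice that had received a mixture of polycyclic aromatic hydrocarbons (PAHs). The members are Gpihbp1, Lpl, Lmf1, Lipc, Lipg, Cd36, Fabp4, Fabp5 and Vldlr. Every array probe whose RefSeq identifier maps to 1 of these 9 symbols was taken, which gave 12 of the 55681 probes on the array, with a pair of probes each for Lpl, Lmf1 and Vldlr. Of these 12 probes, 11 passed the filter on dim signals, as did 31115 probes in all, and the probe for Lipc did not. Gpihbp1 heads the set because earlier results of these data had shown its decline. Its values are therefore a description and carry no p-value, whereas the other members were tested.

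The animals were adult male MutaMouse, a transgenic strain on a BALB/C-DBA/2 background that carries a bacterial reporter gene for mutation assays, aged about 12 weeks. All groups shared this background, the sex and the handling. D0 (5 mice) received olive oil alone, and D1 (4 mice), D2 (5 mice) and D3 (4 mice) received 8 PAHs together, dissolved in the same oil, at 15, 30 and 60 mg benzo[a]pyrene (BaP) equivalents/kg-day. Dosing was by oral gavage on 28 days in a row, and lungs were taken 72 h after the last dose. RNA came from random pieces of the organ, so each value is an average over whatever cells a piece held. Lung RNA was labelled with the red dye Cy5 and compared on each array with a green (Cy3) reference, a pool of RNA from 11 mouse cell lines. The level of a probe is the log2 ratio of red over green, and a difference between groups is a difference of these ratios.

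A total of 19 arrays covered the 18 mice, since D3 mouse 35 was hybridised on a pair of arrays, which were averaged. Array medians of the signal ran from 114 to 152 in red and from 65.0 to 93.0 in green, and 54.5% to 64.7% of spots were well above background in red. The array labelled D2 Mouse 23 has an animal number that lies among those of D1, and the study's methods give D1 and D2 other sizes. It was kept in D2 as labelled, and values with it in D1 are given for Gpihbp1 and where a named call was lost. Each of the 3 slides held all 4 groups, and the column of an array on its slide followed the dose, which means that array column cannot be told apart from dose. The probes of 7 lung epithelial genes such as those for the surfactant proteins had a mean log2 ratio of 5.95 to 6.76 in D0 mice, 5.76 to 6.51 in D1, 6.02 to 6.68 in D2 and 5.71 to 6.33 in D3, so lung markers were present in every group. At D3 these 9 probes differed from D0 by -0.39 to -0.08 (median -0.32) with 0 called by limma and 2 of 9 at an unadjusted p under 0.05, beside 2.42% and 26.1% of all tested probes, and the median was -0.36 at D1 and -0.08 at D2. Median centring gave -0.09 at D3 and the red channel alone -0.0068. The part of epithelial cells in the values of Gpihbp1 was not tested.

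Triglycerides travel in the blood inside lipoproteins, and lipoprotein lipase (Lpl) splits them on the wall of capillaries into fatty acids that the tissue can use. Gpihbp1, a protein of the Ly6 family that is anchored to the surface of capillary endothelial cells, picks up Lpl from the space around the parenchymal cells, carries it across the endothelium and holds it at the capillary lumen. Lmf1 is a chaperone that lipases need to mature, Lipc and Lipg are hepatic and endothelial lipase, Cd36 takes up fatty acids, Fabp4 and Fabp5 bind them inside cells, and Vldlr is a receptor for triglyceride-rich lipoproteins. The lung is known as a site of high Gpihbp1 expression.

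Gpihbp1 (NM_026730) had a lower group mean at each higher dose, and the largest step was the last. In D0 its log2 ratio was 6.19, 5.85, 6.73, 6.53 and 6.53 in mice 1 to 5. In D1 it was 5.72, 5.20, 6.02 and 5.82 in mice 21, 22, 24 and 25. In D2 it was 6.0 in the mouse labelled 23 and 4.90, 4.94, 5.34 and 5.68 in mice 26, 28, 29 and 30. All 4 mice of D3 lay below every other mouse, at 3.37, 3.96, 4.09 and 4.25 in mice 31, 32, 34 and 35, and the value of mouse 35 is the mean of 4.32 and 4.19 on its arrays. D1 overlapped with D0 and D2 overlapped with D1, whereas D3 overlapped with no other group.

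**Figure D1:**
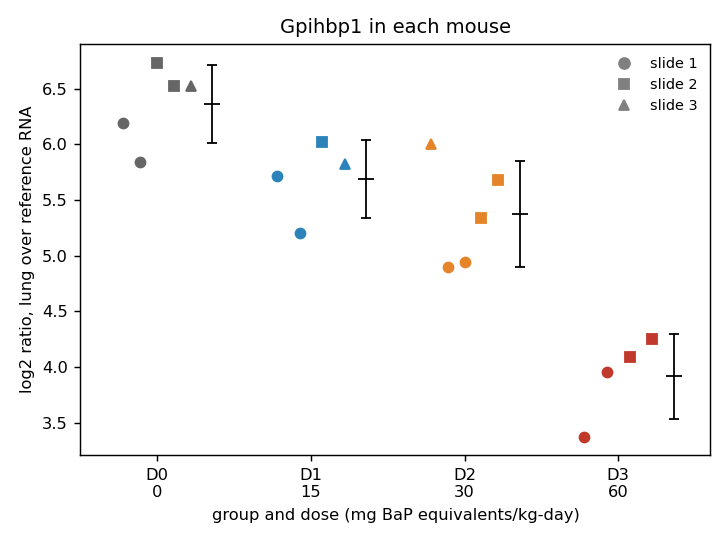
Log2 ratio of Gpihbp1, lung over reference RNA, in each of the 18 mice (points, shaped by slide), with the mean and SD of each group beside them; the horizontal axis gives the group and its dose in mg BaP equivalents/kg-day. Mouse 35, with arrays on slides 2 and 3, is drawn once as slide 2. The 4 D3 mice lie between 3.37 and 4.25, below all mice of the other groups.

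The group means of Gpihbp1 were 6.36 ± 0.35 (SD, n = 5) in D0, 5.69 ± 0.35 (SD, n = 4) in D1, 5.37 ± 0.47 (SD, n = 5) in D2 and 3.92 ± 0.38 (SD, n = 4) in D3. Relative to D0, 62.7% of the level was left in D1, 50.4% in D2 and 18.3% in D3, the last being a 5.45-fold lower level. In log2 units D1 differed from D0 by -0.67 (95% interval -1.16 to -0.18), D2 by -0.99 (-1.45 to -0.53) and D3 by -2.45 (-2.94 to -1.96). Median centring of the arrays in place of loess, the intensity-dependent scaling used here, put D1 at -0.33 and D2 at -0.69. D2 minus D1 was -0.32 (-0.81 to 0.17). With mouse 23 counted in D1 the differences from D0 were -0.61 at D1 and -1.15 at D2, and D2 minus D1 was -0.54 (-0.98 to -0.09). These intervals give the precision of a difference of group means and not the spread of the mice. They are not read as tests, since Gpihbp1 was chosen for its change, and their 95% is nominal. The step from D2 to D3 was -1.46 (-1.95 to -0.97) and made up 59.5% of the whole log2 difference between D0 and D3.

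Ordered from the most negative difference among the 31115 probes, Gpihbp1 stood at rank 109 at D1, 32 at D2, 3 at D3 and 1 for D3 against D2. Groups that do not overlap, with the treated or higher dose lower, were seen for 7.14% of all tested probes in D3 against D0 and for 1.82% in D3 against D2; since Gpihbp1 was chosen by these contrasts, nothing is read from its place among them. Its red signal went from 11800 to 23870 in D0 down to 2101 to 4085 in D3. Its green signal stayed between 103.5 and 258 in all mice, and both channels were well above background on every array.

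On each slide D3 lay below D0 by a similar amount. D3 minus D0 was -2.35 on slide 1, -2.43 on slide 2 and -2.34 on slide 3. The only D3 array on slide 3 is the second array of mouse 35, whose first array is on slide 2. Slide 3 therefore adds no further D3 mouse. D3 minus D2 was -1.26, -1.31 and -1.82, where slide 3 rests on 1 array of each group and its D2 array is the one labelled Mouse 23. With that mouse counted in D1 the step from D2 to D3 was -1.30. Without any 1 mouse it was -1.58 to -1.28, and the difference between D3 and D0 was -2.58 to -2.27. In whole-lung RNA, fewer cells of a type and less RNA per cell cannot be told apart, and this holds for every value given here.

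Lpl, the enzyme that Gpihbp1 carries, had D3 levels that overlapped with those of D0. A probe was called at a limma adjusted p of at most 0.05 together with a change of at least 1.5-fold, and neither Lpl probe was called in any comparison. The brighter Lpl probe (NM_008509) had log2 ratios of 0.92 to 1.74 in D0, 1.22 to 1.93 in D1, 0.90 to 1.54 in D2 and 1.44 to 1.79 in D3. D3 mouse 31, the mouse with the lowest Gpihbp1, had 1.79, just above the D0 range, and the other D3 mice lay within it at 1.46, 1.51 and 1.44. The log2 difference at D3 was 0.15 ± 0.17 (SE, 95% interval -0.20 to 0.49, limma adjusted p = 0.632), and from D2 to D3 it was 0.30 (-0.05 to 0.65, limma adjusted p = 0.507). The dimmer Lpl probe gave -0.18 (-0.51 to 0.15, limma adjusted p = 0.506) at D3, so that the pair differed in sign while both intervals included 0.

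Lmf1 (NM_029624), the lipase chaperone, was called on neither probe in any comparison. Its brighter probe had mean log2 ratios of -0.57 in D0, -0.36 in D1, -0.38 in D2 and -0.40 in D3, and its difference at D3 was 0.17 (95% interval -0.04 to 0.37, limma adjusted p = 0.296). Its dimmer probe differed from D0 by 0.07, -0.02 and 0.0037 at D1, D2 and D3.

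Lipg (NM_010720), endothelial lipase, had a red signal well above background in all 18 mice, at 135 to 219.5, while its green signal was not well above background on any array, so its ratio rests on a dim reference. D0 mice had a mean log2 ratio of 0.93 ± 0.13 (SD, n = 5) and D3 mice one of 1.04 ± 0.13 (SD, n = 4), which differ by 0.11 (95% interval -0.09 to 0.31, limma adjusted p = 0.50). Lipc (NM_008280), hepatic lipase, was not well above background in red in any mouse, at signals of 74 to 107, and no fold is given for it.

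Cd36 (NM_007643), the fatty acid transporter, lay within a narrow range in all groups. Its log2 ratio was 3.83, 3.84, 4.08, 3.84 and 4.07 in D0 mice 1 to 5 and 3.80, 3.97, 3.81 and 3.93 in D3 mice 31, 32, 34 and 35. The groups overlapped, and the difference of -0.05 at D3 had a 95% interval of -0.25 to 0.15 (limma adjusted p = 0.786), which excludes a 1.5-fold change in either direction. At D1 the 4 mice lay at 3.97 to 4.23, a difference of 0.21 that did not pass (limma adjusted p = 0.239).

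Fabp5 (NM_010634), a fatty acid binding protein found in many cell types, was the only member other than Gpihbp1 whose D3 mice lay apart from all D0 mice. Its log2 ratio was -0.24, 0.13, -0.14, -0.30 and -0.17 in D0 mice 1 to 5, and -0.60, -0.36, -0.43 and -0.57 in D3 mice 31, 32, 34 and 35. The highest D3 mouse lay just below the lowest D0 mouse. Such groups that do not overlap were common at D3. Among all tested probes 7.14% had them with D3 lower, and 14.6% in either direction. The D3 difference was -0.34 ± 0.10 (SE, limma adjusted p = 0.036, lower in 4 of 4 mice), or 0.788-fold, which is short of the 1.5-fold threshold, and 12.3% of all tested probes had an adjusted p of at most 0.05 in this comparison. At D2 the difference was -0.30 (limma adjusted p = 0.128, lower in 5 of 5 mice) and between D2 and D3 it was -0.04.

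The adjusted p of Fabp5 at D3 rose above 0.05 without any 1 of D0 mice 2, 3 and 5 or D3 mice 31, 34 and 35, where it was between 0.052 and 0.107. It was also above 0.05 with processed signals (0.141), the deposited log2 table (0.0748), the red channel alone (0.154) and no filter on dim probes (0.052), and it was 0.942 under median centring, with a difference of -0.10. On slides 1, 2 and 3 the difference was -0.42, -0.24 and -0.48, where slides 2 and 3 share D3 mouse 35.

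Fabp4 (NM_024406), the fatty acid binding protein of adipocytes and of some endothelial cells, varied more within each dose group than any other member. Its log2 ratio was 1.86 to 3.18 in D0, 1.75 to 4.85 in D1, 1.67 to 3.04 in D2 and 1.93 to 3.82 in D3. D1 mouse 22 (4.85) and D3 mouse 34 (3.82) stood above the rest. The differences from D0 were 0.50, -0.06 and 0.35 at D1, D2 and D3 with standard errors near 0.50, and the limma adjusted p at D3 was 0.723. Without mouse 22 the D1 difference was -0.18, and without mouse 34 the D3 difference was -0.05.

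The mice with high Fabp4 also had high levels of adipocyte and heart muscle transcripts. Of 7 adipocyte genes, 5 were tested by 6 probes, while Lep and Ucp1 were not well above background. Mean log2 ratios of these 6 probes were 3.78 in mouse 22 and 3.24 in mouse 34, the highest of the 18 mice, against 0.96 to 2.56 in the others. The same mice ranked first and second for the mean of 9 heart muscle probes, at 4.52 and 3.93. By group, the adipocyte mean was 0.98 to 2.45 in D0, 1.60 to 3.78 in D1, 0.97 to 2.56 in D2 and 0.96 to 3.24 in D3, and limma called 0 of the 6 probes in each comparison, with 0 at an unadjusted p under 0.05, where 19.8%, 14.7%, 26.1% and 11.7% of all tested probes had such a p at D1, D2 and D3 and between D2 and D3, and at most 2.42% were called. The part of these transcripts in the Fabp4 values was not tested.

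**Figure D2:**
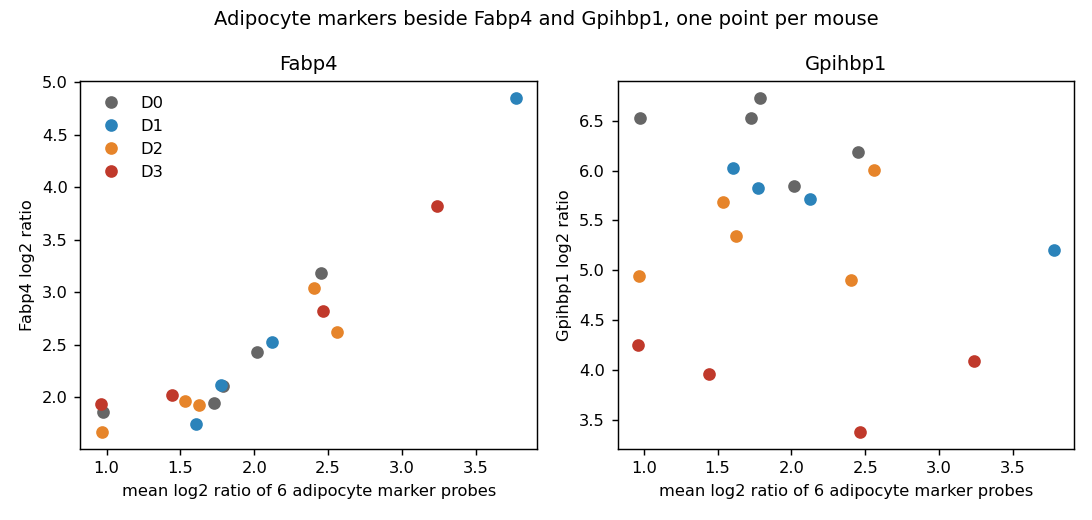
Log2 ratio of Fabp4 (left) and of Gpihbp1 (right) against the mean log2 ratio of 6 adipocyte marker probes, 1 point per mouse coloured by dose group. D1 mouse 22 and D3 mouse 34 are the 2 points farthest right in both panels; they have the highest Fabp4, at 4.85 and 3.82, whereas their Gpihbp1 is 5.20, the lowest of D1, and 4.09, between the other D3 mice.

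Among the D3 mice, in order of adipocyte mean (3.24, 2.47, 1.44 and 0.96 in mice 34, 31, 32 and 35), Gpihbp1 log2 ratios were 4.09, 3.37, 3.96 and 4.25. D1 mouse 22, with the highest adipocyte mean of all, had the lowest Gpihbp1 of D1. The part of adipocyte RNA in the values of Gpihbp1 was not tested.

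Vldlr (NM_013703), the lipoprotein receptor, was represented by probes that did not move alike. The brighter probe had mean log2 ratios of 0.14, 0.06, 0.15 and 0.10 in D0, D1, D2 and D3, and its D3 difference was -0.03 (95% interval -0.24 to 0.17, limma adjusted p = 0.875). For the dimmer probe the D0 mean was 0.04 ± 0.19 (SD, n = 5) and the D3 mean 0.32 ± 0.13 (SD, n = 4). Its differences were 0.31 at D1 (limma adjusted p = 0.128) and 0.29 at D3 (limma adjusted p = 0.116), above the D0 mean in 4 of 4 mice at each dose, and neither was called.

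**Figure D3:**
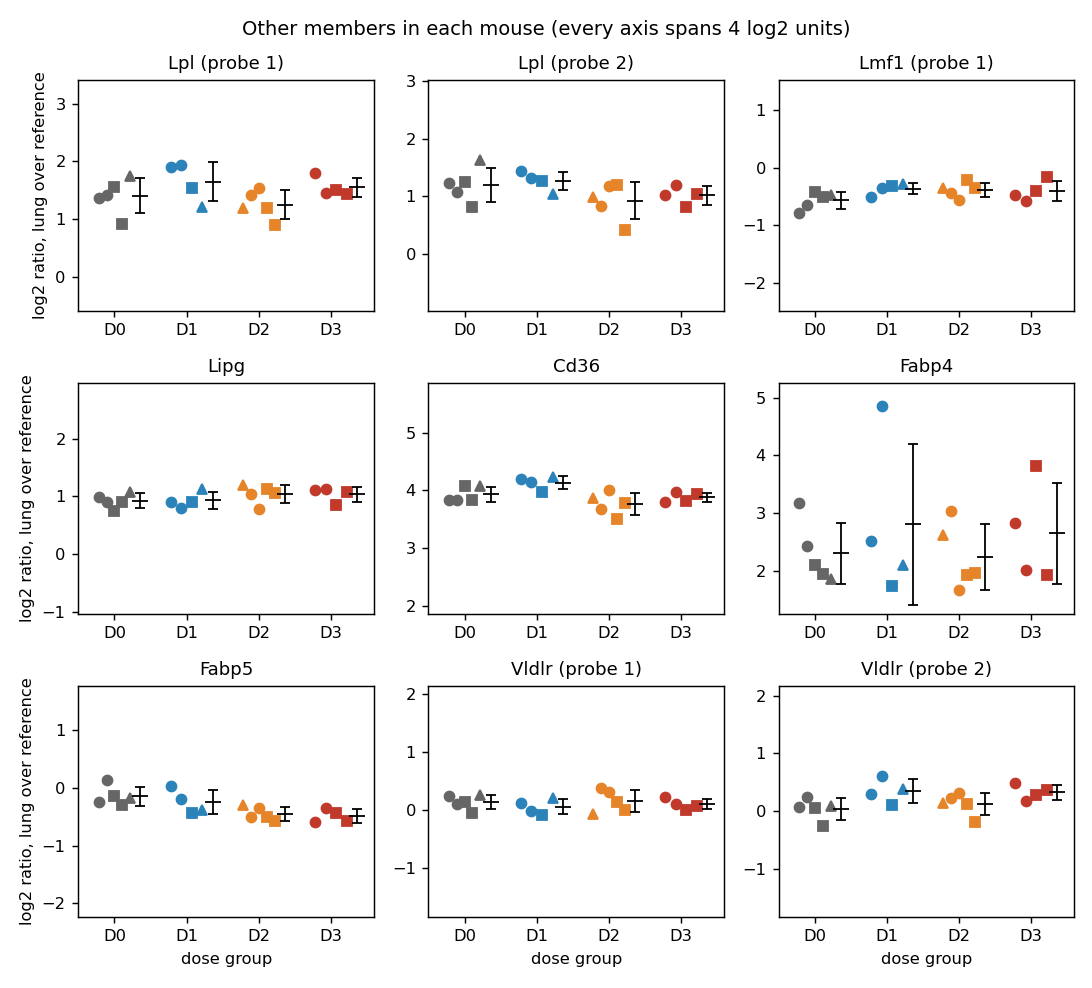
Log2 ratio, lung over reference RNA, of 9 of the 10 tested probes of the members other than Gpihbp1 in each mouse (points, shaped by slide as circles, squares and triangles for slides 1, 2 and 3), with group means and SD. Every panel spans 4 log2 units, so spreads can be compared by eye: Fabp4 ranges from 1.67 to 4.85, whereas Cd36 stays between 3.50 and 4.23; the dimmer Lmf1 probe is left out.

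Over the 10 tested probes of the members other than Gpihbp1, limma called 0 in every comparison. Among all tested probes 1.05% were called at D1, 0.623% at D2, 2.42% at D3 and 0.106% between D2 and D3, so a count of 0 among 10 probes is near the background. At an unadjusted p under 0.05 there were 3 of these 10 probes at D1 (Lmf1, Cd36 and Vldlr), 1 at D2 (Fabp5), 2 at D3 (Fabp5 and Vldlr) and 0 between D2 and D3. Among all tested probes 19.8%, 14.7%, 26.1% and 11.7% had such a p, so with 10 probes each count is near the background. Median differences of the 10 probes were 0.14, -0.04 and 0.06 at D1, D2 and D3 and 0.06 from D2 to D3, beside medians of 0.0066, -0.0036, -0.0018 and -0.0044 over all tested probes. Non-overlapping groups were seen for 1 of 10 at D3 (Fabp5), where 14.6% of all tested probes had them in either direction, and for 0 of 10 at D1, at D2 and between D2 and D3, where 8.91%, 4.11% and 3.63% had them. The D1, D2 and D3 comparisons share the same D0 mice.

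**Figure D4:**
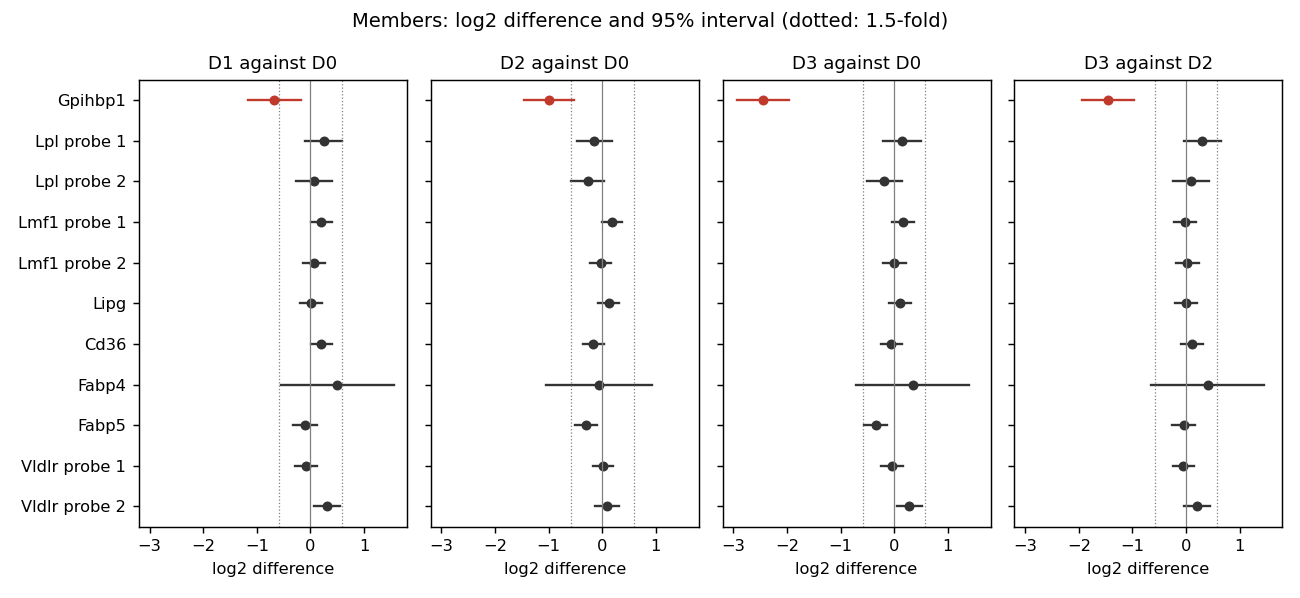
Log2 difference (points) and 95% interval (lines) of each tested member probe at D1, D2 and D3 against D0 and for D3 against D2; dotted lines mark a 1.5-fold change and Gpihbp1, chosen for its change, is red. Gpihbp1 lies at -2.45 in D3 against D0, while the other members lie between -0.34 and 0.35; small differences in sign among them change under other scalings, for example Cd36 from -0.05 to 0.13 under median centring.

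Among the 16 genes that act on lipases or on their lipoprotein substrates, 11 were tested by 12 probes. Angptl4 (NM_020581), a secreted inhibitor of Lpl, was called at D3. Mean log2 ratios of Angptl4 were 0.81 ± 0.48 (SD, n = 5) in D0, 0.61 ± 0.24 (SD, n = 4) in D1, 0.17 ± 0.63 (SD, n = 5) in D2 and -0.07 ± 0.20 (SD, n = 4) in D3, a log2 difference of -0.88 ± 0.26 (SE, limma adjusted p = 0.0336) or 0.544-fold. This was 1 of 12 probes called lower at D3, where 1.22% of all tested probes were called lower. The D2 difference was -0.64 (limma adjusted p = 0.206). Its call at D3 rested on the choice of mice, since the adjusted p was between 0.058 and 0.092 without any 1 of D0 mice 3, 4 and 5 or D3 mice 31, 34 and 35, at differences of -0.90 to -0.76, and it was 0.054 (-0.86) with the scanner software's processed signals and 0.849 (-0.59) under median centring.

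The remaining 11 probes of that list, which cover apolipoproteins such as Apoe and Apoc1, the heparan sulfate proteoglycan Hspg2 and proprotein convertases, were not called in any comparison. Of these, Pcsk5, a convertase that can cut lipases, had a difference of -0.51 at D3 (limma adjusted p = 0.0353) short of 1.5-fold, and Apoe had 0.06 (limma adjusted p = 0.862). Apoc4, Apoa4 and Apoa5 were not well above background. The list median at D3 was -0.04.

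Of 25 genes for the uptake and handling of lipids, 24 were tested by 29 probes. Cav1 (NM_001243064), the main protein of caveolae, the plasma membrane pits that are plentiful in capillary endothelium, was called at D3 with a log2 difference of -0.64 ± 0.12 (SE, limma adjusted p = 0.0021). Its mean log2 ratio was 2.43 in D0, 2.01 in D1, 1.90 in D2 and 1.79 in D3, and from D2 to D3 the difference was -0.10 (limma adjusted p = 0.800), so most of the Cav1 difference was already there at D1 and D2. Without D3 mouse 31 (-0.56) or D0 mouse 3 (-0.57) it was under the fold threshold, and its adjusted p was 0.849 under median centring.

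Mgll, which codes for monoacylglycerol lipase, was called at D2 by 1 of 3 probes (NM_001166250, -0.61 ± 0.16 SE, limma adjusted p = 0.0483), 1 of 29 probes where 0.19% of all tested probes were called lower. The other probes had -0.28 and -0.47 at D2, both short of 1.5-fold, and the call was lost in 20 of the 29 alternatives, mouse 23 counted in D1 among them (-0.62, limma adjusted p = 0.0747). The list median at D3 was 0.02, with probes ranging from -0.64 to 0.72.

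None of the 15 probes for 10 lipid-related transcription factors was called by limma in any comparison. At an unadjusted p under 0.05 there were 1, 1 and 1 of 15 at D1, D2 and D3 and 0 between D2 and D3. Among all tested probes 19.8%, 14.7%, 26.1% and 11.7% had such a p. Pparg, a factor that turns on lipid uptake genes in adipocytes and in alveolar macrophages, came nearest, at -0.48 ± 0.11 (SE, limma adjusted p = 0.0059) at D3, with mean log2 ratios of 1.1, 0.91, 0.75 and 0.62 across D0, D1, D2 and D3. Between D2 and D3, where Gpihbp1 took its largest step, limma called 0 probes in the lipase, uptake and transcription factor lists, with 1 of 12, 3 of 29 and 0 of 15 at an unadjusted p under 0.05. Over all tested probes 0.106% were called and 11.7% had such a p, so these counts are near the background.

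Markers shared by all endothelial cells had D3 differences of both signs. These pan-endothelial markers (11 genes, 13 probes, Cdh5, Tie1 and Kdr among them) had a mean log2 ratio of 4.02 to 4.52 in D0 mice and 4.11 to 4.49 in D3 mice, and 0 of 13 probes were called lower and 1 higher at D3, beside 1.22% and 1.2% of all tested probes, so the count of 0 is near the background. Their D3 differences ran from -0.46 to 0.66 with a median of -0.06, and 7 of 13 were below 0. With the red channel alone the median was 0.35, with 5 of 13 below 0, and with median centring it was 0.03. The lowest was Ramp2, part of a receptor for adrenomedullin, at -0.46 (limma adjusted p = 0.106, not called). Pecam1 was called higher at D3 (0.66 ± 0.15 SE, limma adjusted p = 0.0067) and at D1 (0.67). The vascular cadherin Cdh5 had a D3 difference of 0.27 (limma adjusted p = 0.251), and the pair of Kdr probes had differences of opposite sign, -0.21 and 0.07, with neither called.

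The general capillary cell is the capillary type in which Gpihbp1 is typically found in the lung. For its markers (7 genes, 10 probes) the mean log2 ratio was 4.37 to 4.67 in D0, 4.57 to 5.04 in D1, 4.69 to 5.03 in D2 and 4.71 to 4.87 in D3. On this list mean the mice of D2 and of D3 lay above all D0 mice. Among single tested probes, 4.11% at D2 and 14.6% at D3 had groups that do not overlap, in either direction. The highest D3 differences in the list were those of Sema3c and Adgrl4, and its probes did not all move alike. At D3, 3 of these 10 probes were called higher and 0 lower, beside 1.2% and 1.22% of all tested probes. The median difference of the 10 probes was 0.04, with 4 below 0, and under other scalings it ranged from -0.03 with processed signals to 0.14 with median centring and 0.30 with the red channel alone. Aplnr, the apelin receptor, had -0.69 (limma adjusted p = 0.101, not called), and the Ptprb probes had -0.34 each. Sema3c, a semaphorin, was called by both probes, at 1.41 ± 0.18 (SE, limma adjusted p = 6.8e-05) and 0.92 ± 0.24 (SE, limma adjusted p = 0.0187). Adgrl4, an adhesion receptor of endothelial cells, was at 1.01 ± 0.16 (SE, limma adjusted p = 0.000413), a 2.01-fold higher level. Adgrl4 was also called at D1 (0.76) and Sema3c at D2 (0.93). The second Sema3c probe lost its D3 call without D3 mouse 35 (0.82, limma adjusted p = 0.069).

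Markers of aerocytes, the large capillary cells of the gas exchange surface, had a median D3 difference of -0.25, with 7 of 9 probes below 0. The median was -0.06 with median centring and -0.03 with the red channel alone, each with 6 of 9 below 0. Of 9 probes for 7 genes, 3 were called lower at D3, those of Ednrb, an endothelin receptor (-0.90 and -0.80, limma adjusted p = 0.003 and 0.000212), and of Fibin (-0.77, limma adjusted p = 0.0054), which was also called at D1 (-0.68). Over all tested probes 1.22% were called lower and 1.2% higher at D3. Emcn, a sialomucin of endothelium, was called higher (0.73, limma adjusted p = 0.0089), and Prx had 0.57 (limma adjusted p = 0.0075), short of 1.5-fold. The list mean was 2.76 to 2.93 in D0 and 2.45 to 2.87 in D3. The part of capillary cell types in the values of Gpihbp1 was not tested.

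**Figure D5:**
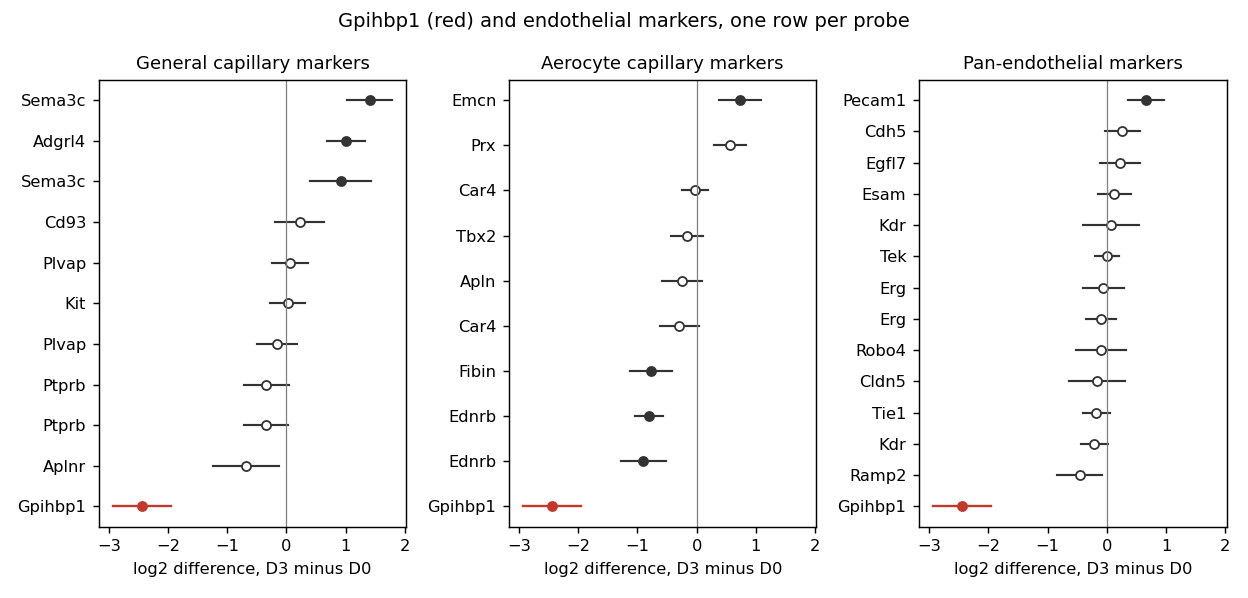
Log2 difference, D3 minus D0 (points), with 95% interval (lines), for each tested probe of the general capillary, aerocyte and pan-endothelial marker lists, with Gpihbp1 in red at the foot of each panel; filled points were called and open points were not. No endothelial probe lies as low as Gpihbp1 at -2.45: the lowest is an Ednrb probe at -0.90, and the highest a Sema3c probe at 1.41; all filled points lost their call, but none its sign, under median centring.

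Alveolar macrophages take up and break down lipids and express several members of the set, and some of their markers were called lower at D2 and D3. The mean log2 ratio of 14 probes for 10 of their markers was 2.72 to 2.97 in D0, 2.60 to 3.08 in D1, 2.16 to 2.72 in D2 and 2.48 to 2.58 in D3. At D3, 3 of the 14 probes were called lower (0 higher), beside 1.22% of all tested probes called lower. Like the other marker lists, this list was written with earlier results of these data known. The count is therefore not read as an excess. The median difference of the 14 was -0.40 at D2, with 13 of 14 below 0 and 10 of 14 at an unadjusted p under 0.05 beside 14.7% of all tested probes. It was -0.21 at D3 (-0.42 with processed signals) and 0.25 for D3 against D2. The 3 called were Krt79 (-1.40, limma adjusted p = 3.6e-06), Fabp1, a fatty acid binding protein (-0.94, limma adjusted p = 0.0094), and 1 of 2 probes of Cidec, a lipid droplet protein (-0.70, limma adjusted p = 0.0331, against -0.10 on the other probe). Siglecf was called lower at D2 by 1 of 2 probes (-1.05, limma adjusted p = 0.0361, against -0.40 with limma adjusted p = 0.0921 on the other), which made 1 of 14 probes where 0.19% of all tested probes were called lower. With mouse 23 counted in D1 it was -1.09 and no longer called (limma adjusted p = 0.0567). Krt79 was also called between D2 and D3 (-0.93, limma adjusted p = 0.0063). The scavenger receptor Marco had a difference of the other sign, 0.94 at D3 (limma adjusted p = 0.0747) and 0.71 at D1, neither called, and Olr1 had 0.28 at D3 (limma adjusted p = 0.183). The part of macrophage numbers in the values of Fabp5, Cd36 and Pparg was not tested.

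The calls of Cidec at D3, of Siglecf at D2 and of Fibin at D1 depended on the choice of mice. Cidec lost its call without any 1 of D0 mice 1, 3, 4 and 5 or D3 mice 32 and 35, Siglecf without any 1 D0 mouse or D2 mice 23 and 26, and Fibin without any 1 of D0 mice 1, 2 and 3 or D1 mice 21 and 22. In these fits the differences were -0.72 to -0.52 for Cidec, -1.10 to -0.97 for Siglecf and -0.66 to -0.59 for Fibin. Pecam1 at D1 lost its call without D1 mouse 25 (0.55). Starting from processed signals of the scanner software, the Ednrb probes (-0.97 and -0.17), Emcn (0.77), Pecam1 (0.62), Fabp1 (-0.61) and Cidec (-0.79) were no longer called at D3, at limma adjusted p from 0.0727 to 0.833, nor were Adgrl4 (0.70, limma adjusted p = 0.084) and Pecam1 (0.64, limma adjusted p = 0.104) at D1 or Siglecf at D2 (-1.61, limma adjusted p = 0.305), while the D3 calls of Sema3c, Adgrl4, Fibin and Krt79 were kept.

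The genes whose log2 ratios were most like those of Gpihbp1 over the 18 mice were Thbs3 (r = 0.931, rho = 0.913), Fmo1 (r = 0.915, rho = 0.905), Pafah1b3 (r = 0.908, rho = 0.868), Krt79 (r = 0.896, rho = 0.874), Fancb (r = 0.894, rho = 0.829) and Syt15 (r = 0.879, rho = 0.915). The median r over all other tested probes was 0.00904. These correlations are a description, since the mice share dose groups and slides. Without mice 31 and 32, which lay farthest from the median of Gpihbp1, they were 0.911, 0.865, 0.883, 0.859, 0.837 and 0.852. Since Gpihbp1 was lowest in D3, genes chosen for likeness to it are low there too, and their log2 differences at D3 were -0.97, -0.80, -0.55, -1.40, -0.33 and -1.34. Among the members themselves r with Gpihbp1 ranged from -0.57 for the dimmer Vldlr probe to 0.53 for Fabp5, and it was -0.27 and 0.22 for the Lpl probes.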

How the data were processed

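Lung RNA of 18 mice was measured on 19 two-colour Agilent arrays of 62976 spots (3671 controls), with Cy5 for lung and Cy3 for the reference on every array. No dyes were swapped, so ratios are open to dye bias. Deposited scanner files hold median spot intensity values without normalization (Feature Extraction 11.0.1.1 in the file headers), and the deposited series table holds log2 ratios that the authors had normalized by LOWESS. Correlations across probes with that table were 0.9954 to 0.9978.

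Median signals without background subtraction were normalized within arrays by loess (span 0.3). Controls and the 171 to 323 spots per array that the scanner software had marked as outliers were dropped, the spots of a probe were averaged, and 80 probes lacking a value in some mouse were not tested. A probe was tested where red was well above background in at least 4 mice of 1 group (31115 of 55681 probes). No spot was saturated, and the number of arrays limits the precision. Gene symbols were assigned to 21465 of 22765 RefSeq-type identifiers through a RefSeq table of assembly GRCm38.p6. Differences were tested by limma 3.58.1 (R 4.3.3) with all 4 groups in 1 model and Benjamini-Hochberg adjustment over all tested probes, after a check on simulated data. The study's MAANOVA was not run. Mice within a group are separate animals.

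The members and the gene lists were chosen with earlier results of these data known. Named genes were all member probes, every listed gene with a called probe, and the 6 symbols most like Gpihbp1 by correlation, over mice and over deviations from group means; listed genes short of a call were named after their values were seen. The brightest red probe is named first. Of the listed genes, 3 (Apoc2, Ly6c2 and Ly6g) had no matched probe. Alternatives changed the background correction, scaling, channel, filter, slide, mouse 23, mouse 35 and each mouse in turn.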

Additional observations from a re-analysis of the deposited data

How the results depend on the processing

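The differences of Gpihbp1 stayed negative under all 11 alternatives and without any 1 mouse: the alternatives gave -0.77 to -0.33 (D1), -1.28 to -0.69 (D2), -2.81 to -2.13 (D3) and -1.52 to -1.30 (D3 against D2). Nothing is read from the kept sign, since Gpihbp1 was chosen for its fall in these same arrays. The tested members had 0 calls in every comparison under every alternative. Replacing loess by median centring moved the median of all probes by 0.168 (D1), 0.121 (D2) and 0.060 (D3) and left 12, 18, 98 and 0 probes called in the 4 comparisons, and all 22 calls among the listed genes were lost with it, none with a change of sign. Several differences stayed as large, such as Sema3c at 1.55, Ly6a at 0.86, Pecam1 at 0.74 and Adgrl4 at 0.99 at D3, while others were smaller, such as Cav1 at -0.43. The cause was not tested.

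Among 69 probes of the 3 lipid lists and the Ly6 family, calls numbered 0 at D1, 1 at D2, 4 at D3 and 0 for D3 against D2, beside 1.05%, 0.623%, 2.42% and 0.106% of all tested probes. At D1 there was 1 with the red channel alone, with mouse 23 in D1 and with the deposited ratios. At D2 there were 0 with processed signals, normexp, median centring, the red channel alone, no filter, mouse 23 in D1 and the second array of mouse 35 alone. At D3 there were 0 with median centring and 7 with the red channel alone and with slide as a block, where 2.19% and 2.54% of all tested probes were called. Leaving out each mouse in turn gave 0 to 2 for D1 (2 without mouse 24), 0 to 1 for D2 (0 without any 1 of mice 1, 3, 5, 21, 22, 23, 26, 30, 31, 34 and 35), 2 to 5 for D3 (2 without mouse 4) and 0 for D3 against D2.

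Small uncalled member differences changed sign. With processed signals Lipg was -0.24 at D1 and -0.21 at D3, the dimmer Lmf1 probe -0.092 at D3 and -0.013 for D3 against D2, and the brighter Vldlr probe 0.038 at D3. With median centring Fabp5 was 0.28 and the brighter Vldlr probe 0.23 at D1; the brighter Lpl probe was 0.075, the dimmer Lmf1 probe 0.056, Cd36 0.061 and Fabp4 0.11 at D2; the dimmer Lmf1 probe was -0.0033, Cd36 0.13 and the brighter Vldlr probe 0.16 at D3, and the dimmer Lmf1 probe -0.059 for D3 against D2. With the deposited log2 table the dimmer Lmf1 probe was -0.0082 at D3. With the red channel alone Lipg was -0.027 at D1 and 0.030 for D3 against D2, the brighter Vldlr probe 0.034 at D3 and Fabp5 0.0065 for D3 against D2. Lipg was -0.0063 at D1 with slide as a block, and for D3 against D2 it was 0.011 with normexp, 0.039 with slide as a block, 0.034 with mouse 23 in D1 and 0.0024 with the first array of mouse 35 alone.

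Leaving out each mouse in turn, Fabp4 ranged from -0.18 to 0.86 (D1), -0.26 to 0.16 (D2) and -0.046 to 0.58 (D3). At D1, Lipg ranged from -0.060 to 0.054 and the dimmer Lpl probe from -0.030 to 0.17. At D2 the dimmer Lmf1 probe ranged from -0.090 to 0.053 and the brighter Vldlr probe from -0.043 to 0.068, and at D3 the dimmer Lmf1 probe from -0.031 to 0.042. For D3 against D2 the ranges were -0.070 to 0.059 for Lipg, -0.10 to 0.037 and -0.049 to 0.093 for the brighter and the dimmer Lmf1 probe, -0.034 to 0.16 for the dimmer Lpl probe and -0.10 to 0.010 for the brighter Vldlr probe. No paired analysis was possible because the groups share no animal numbers; slide, which all groups shared, was fitted as a block instead.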

Other observations

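Gpihbp1 belongs to the Ly6 family of small cell-surface proteins, and 13 probes for 11 of 15 other family genes were tested. At D3 limma called 2 of them higher and 0 lower, beside 1.2% and 1.22% of all tested probes. Ly6a, known as Sca-1, had mean log2 ratios of 2.68 ± 0.21 (SD, n = 5) in D0, 3.19 ± 0.13 (SD, n = 4) in D1, 3.05 ± 0.09 (SD, n = 5) in D2 and 3.36 ± 0.11 (SD, n = 4) in D3, a log2 difference of 0.68 ± 0.10 (SE, limma adjusted p = 0.000212) at D3. Ly6c1 was called by 1 of its 2 probes at D3 (0.61 ± 0.11 SE, limma adjusted p = 0.0017), the other being at 0.48 and short of 1.5-fold. The called Ly6c1 probe lost its call without D0 mouse 4 (0.57) or D3 mice 34 (0.58) or 35 (0.56). Ly6a and Ly6c1 have near-identical relatives in the genome, so their probes may read more than 1 gene. Between D2 and D3 limma called 0 of 13 probes, with 4 at an unadjusted p under 0.05, beside 0.106% and 11.7% of all tested probes. The genes Psca and Gml were not well above background.

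Within dose groups, after each group's mean was taken away, the genes most like Gpihbp1 over 18 mice were Rnf180 (r = 0.879), Mynn (r = 0.877), Pcsk1n (r = 0.876), Sart1 (r = 0.875), Mab21l4 (r = 0.875) and Sugp1 (r = 0.868), beside a median r of 0.0267 over all other tested probes. These 6 were picked as the highest of 31114 probes, so their high r follows from the choice. None of these 6 is among the 6 genes most like Gpihbp1 across groups. With group means left in, their r was 0.599, -0.226, 0.598, 0.695, -0.291 and 0.0503, in the same order. Without mice 31 and 2 the values within groups were 0.826, 0.833, 0.824, 0.903, 0.823 and 0.831. By the same measure Lmf1 stood at 0.54 for its brighter and -0.17 for its dimmer probe, Fabp4 at -0.41, Lpl at -0.48 and -0.13, Cd36 at 0.18, Fabp5 at -0.18 and the Vldlr probes at -0.57 and -0.65. These are descriptions over mice that share slides, with no test.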
